A study of Mus musculus with 63 samples.

Results

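Transcripts of 2 blood cell transcription factors, Runx1 and Hoxa9, were followed across single iR9 cells, together with what else differed between the cells that had Runx1 transcripts and those that had almost none. The iR9 cells were mouse bone marrow cells of the surface phenotype of common helper innate lymphoid progenitors (CHILPs), the precursors of the helper innate lymphoid cells (ILCs). The labels divide no iR9 cell by Runx1. The division was made here, at a Runx1 level of 10 TPM (a measure of transcripts per length that sums to the same number in each library). The members were thus chosen by their measured Runx1 values, which gave 10 Runx1-high and 8 Runx1-low cells. These 18 cells came from 33 of the 63 libraries of the series. Libraries of the same cell number whose titles ended in 2 and 3 were averaged as 1 cell, which held for 8 of the high and 7 of the low cells. Cells 17-1 and 28-3 (high) and 14-1 (low) had 1 library each. A further iR9 cell, 12-1, was left out because it carried mast cell transcripts.

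The iR9 cells were taken from the marrow of Rag2-/-Il2rg-/- recipient mice, 4 weeks after transplantation, by sorting donor cells (CD45.2+, GFP+) that were Lin- and CD127+, lacked CD135 and CD25, carried α4β7+ and had Sca1mid/- staining. Per the series title they derive from pluripotent stem cells, and the design text also calls them R9-iCHILPs. These recipients lack T, B and natural killer cells of their own and keep myeloid cells. The labels do not say what iR9 or R9 stands for, nor what construct the cells carry. The 29 wild-type (WT) CHILPs, used here only where stated, were sorted with the same gate without GFP. Every WT cell had 1 library, whose title ended in 1. Both groups are labelled C57BL/6. No animal or culture was named, so each class of cells is 1 sample of many cells. Differences are hence given with the SD over cells as a description, and nothing was tested. A value is a sum over all transcripts given 1 gene symbol, so RNA from an introduced copy of a gene and from its own locus cannot be told apart.

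RUNX1 is a DNA-binding factor that works with the partner CBFβ. It is required for the first blood stem cells to form from endothelium and later acts in lymphoid and megakaryocyte development. HOXA9 is a homeodomain factor of the HoxA cluster that binds DNA with MEIS and PBX cofactors and sustains stem cells and early lymphoid progenitors. In ILCs, RUNX proteins take part in the programme of group 3 cells (ILC3) and lymphoid tissue inducer (LTi) cells.

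The windows of 250 bases before the annotated starts of both genes are shown because the transcripts of the 2 genes were found in the same cells. They are RefSeq sequences on GRCm38.p6, printed 5′ to 3′ on the minus strand, on which both genes lie. Hoxa9 has 1 annotated window in this table, at chr6:52227371-52227620, and Runx1 has 2, a proximal one at chr16:92697330-92697579 and a distal one at chr16:92826075-92826324. These are RefSeq starts. The gene bounds given below come from another annotation, GENCODE, and reach further. The Hoxa9 and proximal Runx1 windows lie inside those bounds, and the distal Runx1 window does so in part. A RUNX motif (TGTGGT or TGCGGT, on either strand) was searched. It occurred in none of these 3 windows. Of all 32851 windows of this length, 18.59% held it. In the first bases after the distal Runx1 start, at chr16:92826029-92826050, it occurred in 2 copies on the opposite strand, marked by capitals in the last sequence. The values do not say which start a transcript used.
Hoxa9 window: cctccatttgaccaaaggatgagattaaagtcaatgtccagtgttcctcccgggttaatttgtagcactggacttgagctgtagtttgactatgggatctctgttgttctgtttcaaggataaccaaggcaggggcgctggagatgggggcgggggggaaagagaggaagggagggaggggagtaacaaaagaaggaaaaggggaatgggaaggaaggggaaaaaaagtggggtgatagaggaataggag
Runx1 proximal window: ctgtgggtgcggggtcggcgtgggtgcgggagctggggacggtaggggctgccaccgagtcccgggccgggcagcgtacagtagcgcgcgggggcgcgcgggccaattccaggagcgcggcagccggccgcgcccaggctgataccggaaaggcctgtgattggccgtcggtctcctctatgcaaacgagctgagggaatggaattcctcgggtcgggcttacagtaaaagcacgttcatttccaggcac
Runx1 distal window: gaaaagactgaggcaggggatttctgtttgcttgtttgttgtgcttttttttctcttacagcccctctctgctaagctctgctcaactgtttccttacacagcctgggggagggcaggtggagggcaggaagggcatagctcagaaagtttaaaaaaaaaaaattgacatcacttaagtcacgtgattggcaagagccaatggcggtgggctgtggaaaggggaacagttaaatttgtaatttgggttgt
Runx1 after the distal start: aacaACCACAgaACCACAagtt

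The libraries averaged as 1 cell were close to each other and unlike those of other cells. Pearson r of log2(TPM + 1) ran from 0.973 to 0.991 over the 15 pairs of the same number and from 0.207 to 0.344 over 210 pairs of different numbers. Read depth is unknown, since TPM has the same total in each library. The number of genes at TPM of at least 1 ran from 1514 to 2174 in the Runx1-high cells (median 1792.5) and from 1566 to 3238 in the Runx1-low cells (median 1623). At TPM above 0 the order of the medians was the other way, 3275 in high and 3614.5 in low cells. A 0 in this table says that the gene is listed at 0, and no more.

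Runx1 (ENSMUSG00000022952.17, GRCm38 chromosome 16, 92601466 to 92826149, minus strand) chose the classes, so its values are given as a description. Among the high cells it stood at 1499 TPM in cell 33, 1061 in cell 2, 479 in cell 6, 445 in cell 32, 247 in cell 20, 223 in cell 28-3, 216 in cell 25, 113 in cell 30, 71.1 in cell 19 and 18.4 in cell 17-1. Among the low cells it stood at 1.66 TPM in cell 34, 1.45 in cell 12, 0.977 in cell 10, 0.809 in cell 8, 0.694 in cell 15, 0.572 in cell 24, 0.425 in cell 14-1 and 0.344 in cell 27. The cells just inside and just outside the threshold, 17-1 and 34, were thus at 18.4 and 1.66 TPM. No iR9 cell of the 18 lay between them, and within the high class Runx1 covered a wide range of levels.

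Hoxa9 (ENSMUSG00000038227.15, chromosome 6, 52223100 to 52231089, minus strand) was abundant in the cells with the most Runx1 and near 0 in all others. It stood at 1753 TPM in cell 33, 1888 in cell 2, 502 in cell 6, 879 in cell 32, 356 in cell 20 and 188 in cell 28-3. In the remaining Runx1-high cells it was at 2.22 TPM in cell 25, 2.80 in cell 30, 2.00 in cell 19 and 0.467 in cell 17-1. Among the Runx1-low cells it was at 2.77 TPM in cell 34, 1.42 in cell 12, 1.04 in cell 10, 1.02 in cell 8, 1.01 in cell 15, 0.816 in cell 24, 0 in cell 14-1 and 0.322 in cell 27. The 6 cells with Hoxa9 at TPM of at least 10 were the 6 cells with the highest Runx1. Cells 28-3 and 25, next to each other in Runx1 at 223 and 216 TPM, differed from 188 to 2.22 TPM in Hoxa9. The classes overlapped, because high cells 25, 19 and 17-1 had Hoxa9 in the range of the low cells. Cell 30 was just above that range.

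**Figure D1:**
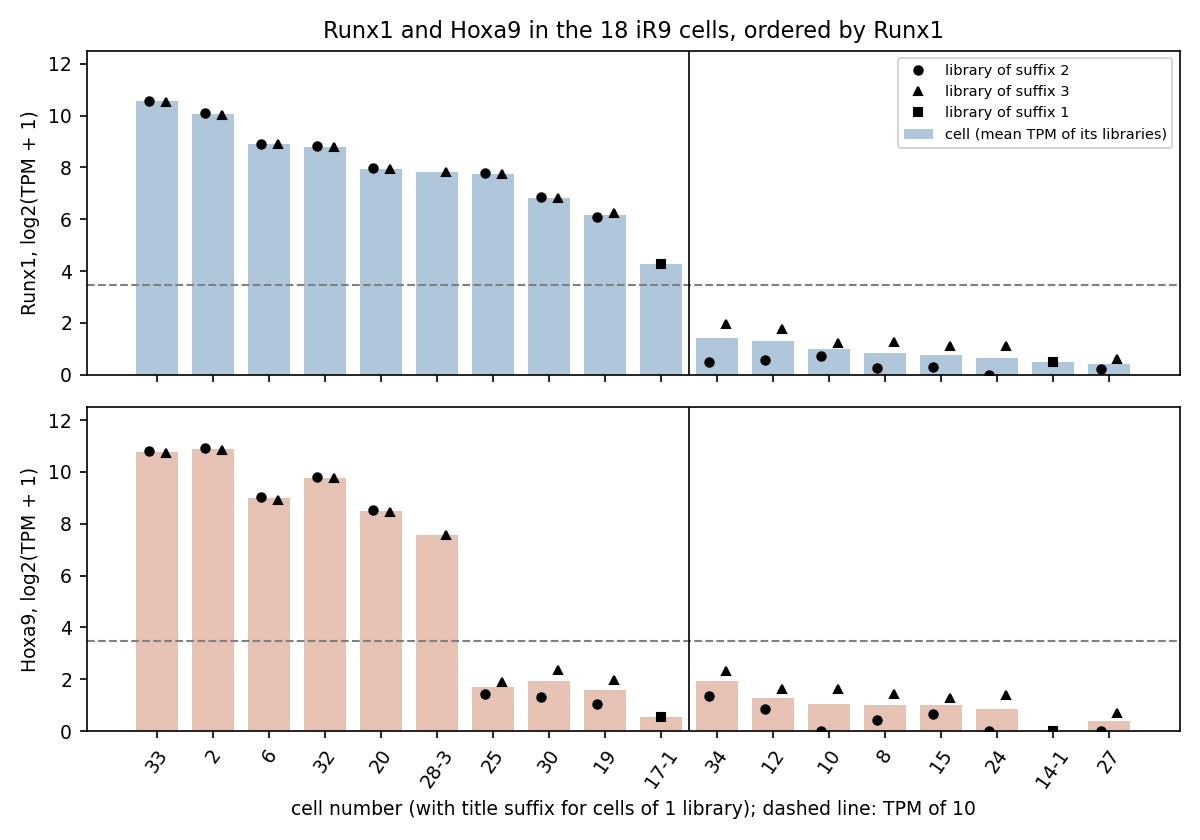
Runx1 (upper panel) and Hoxa9 (lower panel) as log2(TPM + 1) in the 18 iR9 cells, ordered by Runx1. Bars give the cell's value, points the single libraries (circle, suffix 2; triangle, suffix 3; square, suffix 1), the dashed line a TPM of 10 and the vertical line the border between Runx1-high (left) and Runx1-low cells. Hoxa9 is above the dashed line in the 6 leftmost cells and below it in the other 12.

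At TPM of at least 10, the level called present below, Hoxa9 was found in 6 of 10 Runx1-high cells (60%, exact Clopper-Pearson 95% interval 26.2 to 87.8%) and in 0 of 8 Runx1-low cells (0 to 36.9%). Such intervals hold for counting error alone. The mean of log2(TPM + 1) was 6.22 ± 4.25 (SD over 10 cells) in high and 0.94 ± 0.57 (SD over 8 cells) in low cells, a difference of 5.28. Genes that reached 10 TPM in 4 or more of the 18 cells are called measured genes below. Of the 2186 such genes other than Runx1, 285 (13%) were higher in the high cells by at least 2 on this scale and 225 (10.3%) were lower by as much. Hoxa9 was the second highest of all. No gene apart from Runx1 had classes that did not overlap.

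Where both were abundant, the 2 transcripts stood at similar levels. Hoxa9 was 1.17 times Runx1 in cell 33, 1.78 in cell 2, 1.05 in cell 6, 1.98 in cell 32, 1.44 in cell 20 and 0.843 in cell 28-3. TPM is scaled by transcript length, so this ratio compares levels per length. A description chosen after the values were seen, concerns how closely a gene's presence followed the order of Runx1. Among 1978 genes that reached 10 TPM in 4 to 14 cells, Hoxa9 was the 1 gene that was present in exactly the cells with the highest Runx1. For genes in more than 10 cells, this order runs into the Runx1-low cells, whose values are too low to be ordered. Such genes could hence not be judged in this way, though the 1978 include them.

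Values of Runx1 and Hoxa9 below 10 TPM moved with the title suffix. In the 7 averaged low cells, Runx1 was higher in the suffix 3 library every time, with 0 to 0.638 TPM in suffix 2 and 0.533 to 2.92 TPM in suffix 3 libraries. Hoxa9 was higher in suffix 3 in 10 of the 10 averaged cells below 10 TPM, with 0 to 1.68 TPM against 0.645 to 4.09 TPM. In cells above 10 TPM, the ratio of suffix 3 to suffix 2 was between 0.948 and 1.10 for Runx1 and between 0.925 and 0.991 for Hoxa9. The part of the suffix in the low values was not tested, and no order is read from them.

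**Figure D2:**
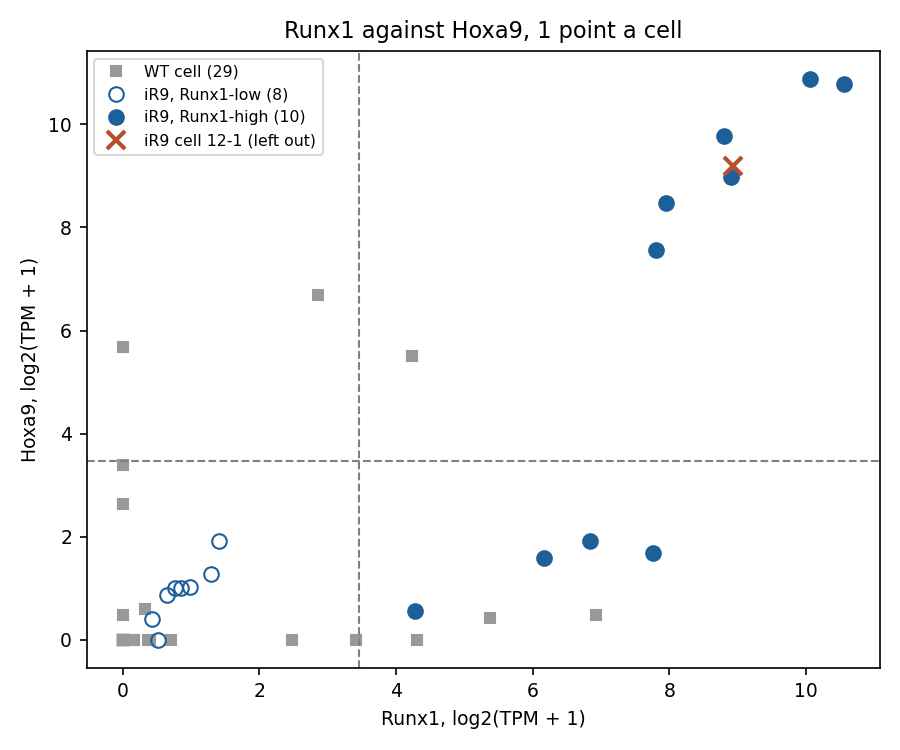
Runx1 (x axis) against Hoxa9 (y axis), both as log2(TPM + 1), with 1 point a cell and dashed lines at a TPM of 10. Filled circles are Runx1-high iR9 cells, open circles Runx1-low iR9 cells, squares WT cells and the cross the left-out cell 12-1. The upper right field holds 6 filled circles, the cross and 1 WT cell, and 4 filled circles lie in the lower right field.

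Other genes of the HoxA cluster were not seen beside Hoxa9. Hoxa2, Hoxa3, Hoxa4, Hoxa5, Hoxa6, Hoxa7, Hoxa10, Hoxa11 and Hoxa13 were listed at 0 in all 18 cells. Meis1, which encodes a HOXA9 cofactor, was at 320 TPM in cell 28-3, 368 in cell 17-1 and 460 in cell 34, and at most 0.283 TPM in the other cells. It thus reached 10 TPM in 1 of the 6 cells with Hoxa9, 1 of the 4 other high cells and 1 low cell. Of the PBX cofactors, Pbx3 was listed at 0 in all 18 cells and Pbx2 reached 10 TPM in none.

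Partners and relatives of RUNX1 were found in few cells of either class. Cbfb, the obligate partner of RUNX proteins, was at 357 TPM in cell 6 and 344 TPM in cell 34, and below 1 TPM in the other 16 cells. Runx3, the family member used by ILC1 and ILC3, reached 10 TPM in 3 high cells and 1 low cell, with a median of 0.711 TPM in high and 0.187 in low cells and maxima of 357 and 420 TPM. Runx2, known from bone formation, reached that level in cell 32 alone, at 226 TPM. Aes, encoding a short Groucho family corepressor, reached it in 6 high and 4 low cells, and its mean was higher in the high cells by 1.01. Of the other listed partners, Tle3 reached 10 TPM in 2 high cells and 1 low cell and Cbfa2t2 in 1 low cell. Tle4 did so in no cell, and Tle1 and Cbfa2t3 were listed at 0 throughout.

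Genes described as RUNX1 targets in blood cells were mostly below detection in both classes. Of 18 such genes, 12 stayed below 10 TPM in all 18 cells. Cdkn1a, encoding a cell cycle inhibitor, differed by 1.48 and Il7r by 0.35, against a median of 0.07 over all measured genes. Of 10 genes described as HOXA9 targets, Bcl2 was the measured one, and 7 stayed below 10 TPM throughout. Bcl2, an inhibitor of apoptosis, ran from 0 to 764 TPM (median 19.1) in high and from 0.303 to 415 TPM (median 0.544) in low cells, a difference of 2.36. It reached 10 TPM in 6 of 10 high and 2 of 8 low cells. Of these 6 high cells, 3 had Hoxa9 and 3 did not.

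Genes that mark the ILC lineage were present in both classes. Id2, the inhibitor of E proteins that sets the ILC fate, was the most uniform of them. It ran from 3418 to 14949 TPM (median 7625) in high and from 4107 to 16949 TPM (median 10333) in low cells, and its difference of -0.33 was smaller than the SD of 0.71 and 0.75 over the cells of each class. Il7r, encoding CD127, by which the cells were sorted, reached 10 TPM in 9 of 10 high and 7 of 8 low cells, with medians of 209 and 215 TPM. Cxcr6, a chemokine receptor of ILC progenitors leaving the marrow, did so in 9 of 10 high and all 8 low cells. The ranges of all 3 genes overlapped broadly. Zbtb16, encoding PLZF, and Bcl11b, 2 factors that mark ILC precursors, were listed at 0 in all 18 cells.

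Of 18 ILC progenitor genes, 12 were measured. Of these, 6 had a positive and 6 a negative difference, beside 51.4% of all measured genes with a positive one. A difference of 2 was passed by 1 of the 12, upwards, beside 13% of all measured genes higher by as much. The median was -0.11 against 0.07 over all measured genes. Its sign turned under other settings, with 0.41 in the 16 cells of shared gene number. Lmo4, a LIM-domain cofactor of transcription factors, was the gene that passed. It ran from 0.788 to 809 TPM (median 97.4) in high and from 0.928 to 398 TPM (median 12.1) in low cells, reached 10 TPM in 9 of 10 and 5 of 8 cells, and differed by 2.30. Thy1, a surface protein of ILCs and T cells, was next with 1.56, from 3 high cells and 1 low cell at TPM of at least 10. Itgb7, encoding the integrin chain β7 of the sort gate, was lowest with -1.54, present in 5 high and 6 low cells. Gata3, required by progenitors and ILC2, differed by -1.33, with 3 high and 4 low cells. Rora, a nuclear receptor of ILC2, differed by -1.07 with 2 high and 3 low cells.

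Tcf7 was below 10 TPM in the cells with Hoxa9 and above it in most of the other Runx1-high cells. Tcf7, encoding TCF-1, a factor of early lymphoid commitment, reached 10 TPM in 3 high and 2 low cells. The high ones were cell 25 at 1337 TPM, cell 17-1 at 111 TPM and cell 19 at 70.8 TPM, and the 6 cells with Hoxa9 were at most at 2.39 TPM. The low ones were cell 8 at 1152 TPM and cell 14-1 at 266 TPM. Tcf7 thus reached 10 TPM in 0 of 6 cells with Hoxa9, 3 of 4 other high cells and 2 of 8 low cells, with cell 30 at 0.600 TPM. Absence from all 6 and presence in at least 3 of the 4, set to the counts of Tcf7, was found for 21 of the 2186 measured genes (0.961%). This split of the high cells was made after the values were seen, and with 4 and 6 cells it is given as a count alone. Ets1, a factor of lymphocyte and natural killer cell development, was at that level in 1 of 6, 3 of 4 and 3 of 8 cells in the same order. The 3 other high cells were those with Tcf7 (25, 19 and 17-1), and the 1 cell with Hoxa9 was 28-3, at 24.8 TPM. Ets1 thus leaned the same way as Tcf7 within the high class, without being absent from all 6.

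Of the 16 ILC3 and LTi genes, 7 were measured. Of these, 3 had a positive and 4 a negative difference, beside 51.4% of all measured genes with a positive one. Their median was -0.63. This sign also turned, to 0.33 in the suffix 3 libraries alone and to 0.30 in the cells of shared gene number. Ccr6, a chemokine receptor of LTi cells, was present in 3 high cells and 1 low cell, with a difference of 1.56.

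Ltb, encoding lymphotoxin β, the surface cytokine of LTi cells, was present in all 18 cells and lower in the high class. It ran from 600 to 10526 TPM (median 3459) in high and from 2415 to 22157 TPM (median 5815) in low cells, with means of 11.44 ± 1.27 and 12.57 ± 1.01 and a difference of -1.14. The ranges overlapped over most of their length. Lta, encoding its partner lymphotoxin α, was present in 6 high and 4 low cells with a difference of 0.28. Tnfsf11, encoding RANKL, another cytokine of LTi cells, was at 975 TPM in cell 34, 457 in cell 10 and 422 in cell 14-1, and at most 0.419 TPM in the other 15 cells, all 10 high cells among them. It was in too few cells to be counted as measured. Il22, the main cytokine of ILC3, was at 3446 TPM in cell 19 and 254 TPM in cell 30 of the high class and at 9151 TPM in cell 27 of the low class. Il23r, encoding a receptor chain that drives its release, was present in 3 cells of each class and differed by -1.56, and Il1r1 by -1.57.

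**Figure D3:**
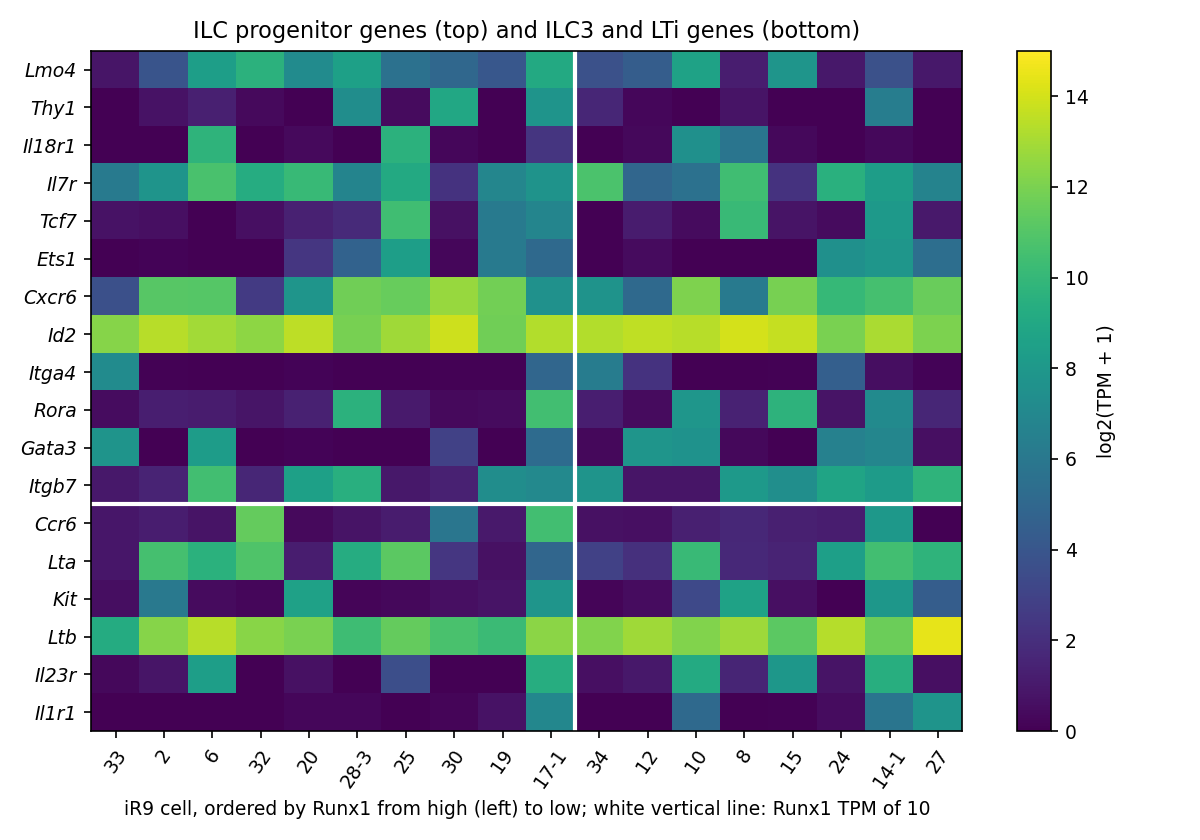
Colour gives log2(TPM + 1) of measured ILC progenitor genes (above the horizontal line) and ILC3 and LTi genes (below it) in each iR9 cell, from highest Runx1 (left) to lowest, with genes ordered by their difference. Id2 and Ltb are bright in every column, and Tcf7 is dark in the 6 leftmost cells.

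The lists of ILC2 genes and of ILC1 and natural killer cell genes had no measured member past a difference of 2. The 3 measured ILC2 genes ran from -1.33 to 0.87. The 1 measured gene of ILC1 and natural killer cells, Klrb1b, encoding a killer cell lectin-like receptor, differed by -1.50, with 5 high and 6 low cells at TPM of at least 10. Pdcd1, encoding PD-1, which marks ILC precursors, was at 772 TPM in cell 8 and 17.5 TPM in cell 14-1 of the low class and at most 0.507 TPM in high cells. Of 7 measured cytokine receptor and JAK-STAT genes, none passed a difference of 2, beside 13% higher and 10.3% lower of all measured genes. Their median was -0.57. Il2rg, encoding the common γ chain, which the recipients lack, was present in all 18 cells, with medians of 2257 TPM in high and 3982 TPM in low cells.

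Interferon response genes had positive differences throughout their measured members. All 5 measured genes of 16 listed were higher in the high cells, beside 51.4% of all measured genes, and 2 of them passed a difference of 2, beside 13%. Bst2, encoding tetherin, an antiviral membrane protein, ran from 2.64 to 1829 TPM (median 861) in high and from 1.12 to 572 TPM (median 4.10) in low cells and differed by 3.27. It was present in 7 of 10 high and 3 of 8 low cells. Irf1, encoding an interferon regulatory factor, differed by 2.15, from 4 high cells and 1 low cell. Irf7 and Ifi47 differed by 1.47 each, both from 3 high cells and 1 low cell. In the averaged pairs alone they differed by 0.73 and 0.55, and Bst2 and Irf1 by 3.30 and 3.00. Unmeasured members did not all follow: Isg15 was listed at 0 in the 10 high cells and reached 10 TPM in 2 low cells.

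Genes of antigen presentation on MHC class I were abundant in both classes and differed in both directions. Of 10 measured genes, 2 were higher by at least 2 and 1 was lower by as much, near the 13% and 10.3% of all measured genes, and the median was 0.01. H2-T23, encoding the nonclassical molecule Qa-1, ran from 420 to 2299 TPM (median 906) in high cells and from 4.22 to 1576 TPM (median 587) in low cells, 2 of which were below 10 TPM, and differed by 2.72. Psmb9, an immunoproteasome subunit, differed by 2.48, while Psmb8, another subunit present in all 18 cells, differed by -1.06, with means of 10.47 ± 0.91 in high and 11.53 ± 0.67 in low cells. Tap2, a subunit of the peptide transporter, differed by -2.31. B2m, the light chain, differed by -0.30, with medians of 23602 and 27124 TPM.

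Of the 4 measured BCL2 family genes, Bax and Bcl2 passed a difference of 2, beside 13% of all measured genes, and Bad and Bcl2l1 differed by -0.19 and -0.80. Bax, which promotes apoptosis, was present in 8 of 10 high and 3 of 8 low cells, with medians of 604 and 3.22 TPM and a difference of 3.24. Among 7 measured heat shock genes, 1 was higher by at least 2 and 1 was lower by as much, beside 13% and 10.3% of all measured genes. Hsp90ab1, encoding a cytosolic chaperone, was higher by 4.11, present in 7 of 10 high and 2 of 8 low cells. Dnaja1, a cochaperone, was lower by 2.41 in the high cells, present in 4 of 10 and 6 of 8. Of 25 ribosomal protein genes, all measured, 0 were higher by at least 2, beside 13% of all measured genes. Rpl3, Rpl19, Rps3 and Rpsa were among the 5 lower by as much, beside 10.3% of all measured genes. Rpsa ran from 0.0770 to 854 TPM in high and from 179 to 1239 TPM in low cells and differed by -3.0. The median of the list was -0.05. The medians of the AP-1 and immediate early genes (9 measured) and of the cell cycle genes (3 measured) were 0.05 and 0.28, with no measured member past a difference of 2.

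**Figure D4:**
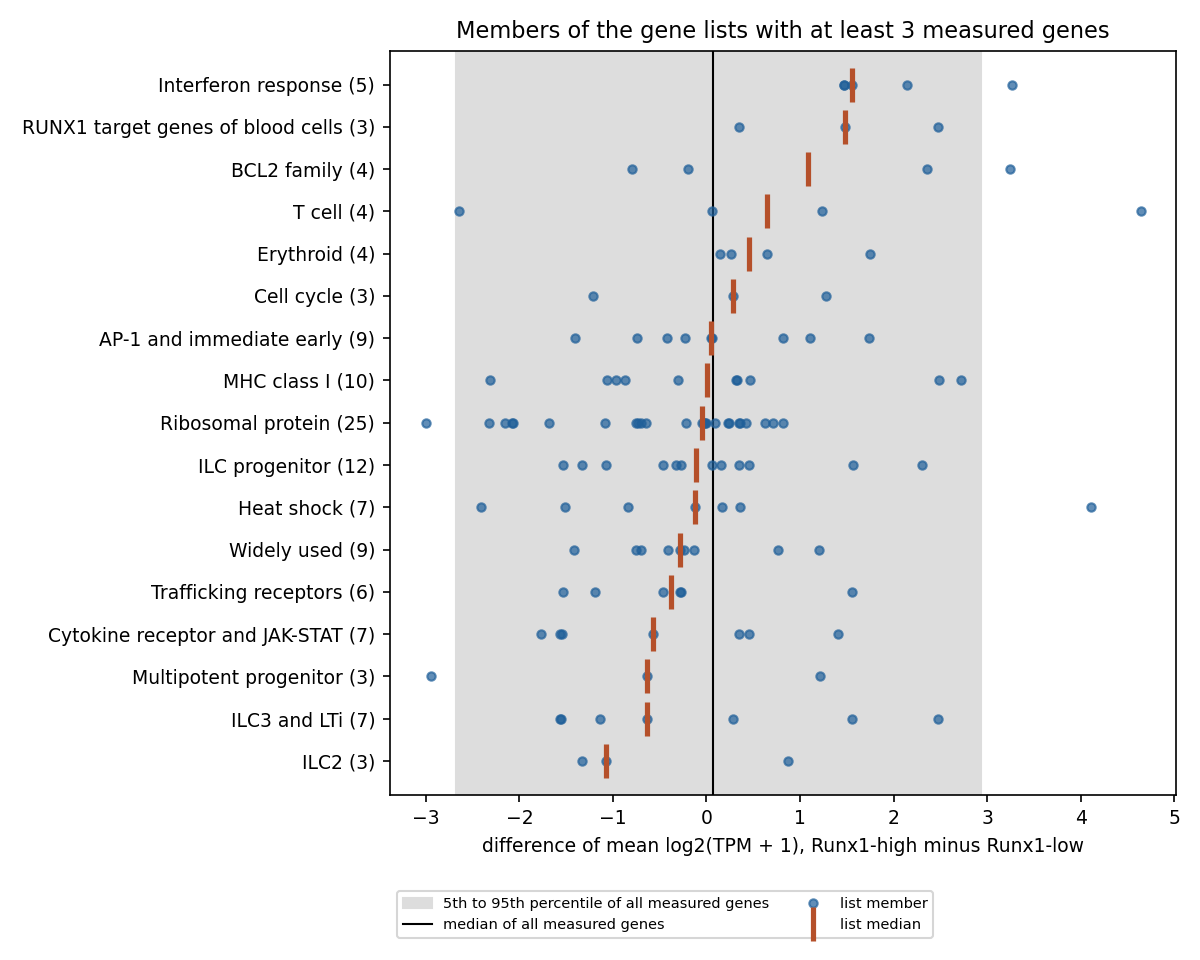
Difference of mean log2(TPM + 1), Runx1-high minus Runx1-low cells (x axis), for the measured members of each gene list with at least 3 of them (number in brackets). Points are genes, the short vertical bars list medians, the grey band the range from -2.68 to 2.94 that holds the 5th to the 95th percentile of all measured genes, and the line their median of 0.07. Every list median lies within the band, the highest for the interferon response.

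Markers of other cell types were counted in each cell beside these differences. Of the mast cell, B cell, early lymphoid and pluripotency lists, no gene reached 10 TPM in a high cell and at most 1 gene of each list did so in a low cell. Low cell 14-1 had Tpsb2 at 17.4, Cpa3 at 9.49, Cma1 at 6.99 and Mcpt4 at 2.61 TPM, all mast cell genes, of which Cpa3 was at most at 1.53 TPM and the others were listed at 0 in the remaining 17 cells. Of the 4 measured T cell genes, 3 had a positive difference, beside 51.4% of all measured genes. These were Lat with 4.64, Lck with 1.24 and Zap70 with 0.06. Cd247, a T cell receptor chain, was present in 1 high and 3 low cells and differed by -2.64, and the median of the 4 was 0.65. Of the 3 measured multipotent progenitor genes, Ly6a differed by 1.21, Kit by -0.63 and Fli1, an ETS factor of blood stem cells present in 2 high and 4 low cells, by -2.95. T cell genes at that level numbered 0 to 3 of 12 in the cells of both classes, and erythroid genes 0 to 3 of 9. Myeloid genes numbered 0 to 3 of 13 in high and 0 to 2 in low cells, and dendritic cell genes 0 to 3 of 13 and 0 to 2. Their summed levels overlapped, with 1.94 to 4391 TPM in high and 3.82 to 2851 TPM in low cells for myeloid genes. Hba-a2, encoding α-globin, whose reads may be shared with the near-identical Hba-a1, ran from 1.43 to 13624 TPM in high and from 0 to 4179 TPM in low cells. The part of these transcripts in the differences was not tested.

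Genes were next taken by size of difference among those that reached 10 TPM in 6 or more cells and kept their sign in the averaged pairs, for each suffix and without each cell in turn. The 12 highest of these were Atp5c1, Hoxa9, Cisd1, Cops6, Nhp2, Cnpy2, Aurkaip1, Lat, Eif2s1, Pebp1, Ptgr2 and Strap, between 4.27 and 5.30. Atp5c1, the γ subunit of mitochondrial ATP synthase, was present in 8 of 10 high and 2 of 8 low cells. It was at 0.796 TPM in cell 33 and 2.24 TPM in cell 6, 2 cells with much Runx1, so it did not follow the order of Runx1 as Hoxa9 did. Cisd1, an iron-sulfur protein of the outer mitochondrial membrane, was present in 6 high cells, 4 of them with Hoxa9, and at most 1.68 TPM in the low cells. Lat, encoding the adaptor that links antigen receptors to signalling, ran from 0.664 to 2529 TPM (median 781) in high and from 1.02 to 357 TPM (median 3.15) in low cells. Cops6, a subunit of the COP9 signalosome, was present in 9 of 10 high and 2 of 8 low cells, the latter at 1851 TPM in cell 8 and 508 TPM in cell 14-1. Eif2s1, the α subunit of initiation factor eIF2, was present in 6 high cells and at most 1.06 TPM in low cells. Hoxa9 was the member of these 12 whose 6 cells were those with the highest Runx1.

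A presence in at least 6 high cells and no low cell, a criterion set to the counts of Hoxa9 after its values were seen, was met by 8 of the 2186 genes (0.366%). Besides Hoxa9 they were Cisd1, Eif2s1, Gatad1, Nhp2, Ptgr2, Smek1 and Strap. Nhp2 encodes a component of box H/ACA ribonucleoproteins, which modify ribosomal RNA and are part of telomerase. It stood at 350 to 1112 TPM in its 6 high cells and at most 2.53 TPM in low cells. Presence in at least 5 low cells and no high cell, set in the same way, was met by 3 genes (0.137%), Dpp3, Rnf11 and Tubb4b.

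The 12 lowest genes under the same limits were Tspan32, Klf6, Psmc2, Pdcd5, Ncl, Pdcd4, Timm17a, Sacm1l, Serbp1, Txndc17, Tmem223 and Ifi27l1, between -6.05 and -3.80. Tspan32, a tetraspanin of blood cells (ENSMUSG00000000244.17, chromosome 7, 143005046 to 143019644), was the lowest of all measured genes. In low cells it was at 803 TPM in cell 34, 454 in cell 12, 612 in cell 10, 510 in cell 8, 1496 in cell 15, 154 in cell 24, 388 in cell 14-1 and 1.98 in cell 27. In high cells it was at 149 TPM in cell 20, 31.3 TPM in cell 28-3 and at most 2.59 TPM in the other 8. All low cells but cell 27 were thus above every high cell. Both high cells with the transcript had Hoxa9, and their Runx1 was the lowest among the 6 with Hoxa9.

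Klf6, a zinc finger factor induced early after activation, was present in 6 of 8 low cells at up to 875 TPM and in 1 high cell, cell 33, at 988 TPM. Serbp1, an RNA-binding protein of the ribosome, was the most even in the low class, at 60.04 to 299.6 TPM in all 8 cells, against 0 to 207 TPM (median 5.18) and 4 of 10 cells in the high class. Its means were 3.06 ± 3.20 in high and 6.96 ± 0.93 in low cells. Ncl, encoding nucleolin of the nucleolus, reached 10 TPM in 6 low cells, at up to 351 TPM, and in 1 high cell, at 12.8 TPM. Pdcd4, an inhibitor of translation initiation, was present in 6 low cells at 53.4 to 666 TPM and in 3 high cells at up to 79.5 TPM. Of the lowest 12, Serbp1 was the member present in all 8 low cells.

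**Figure D5:**
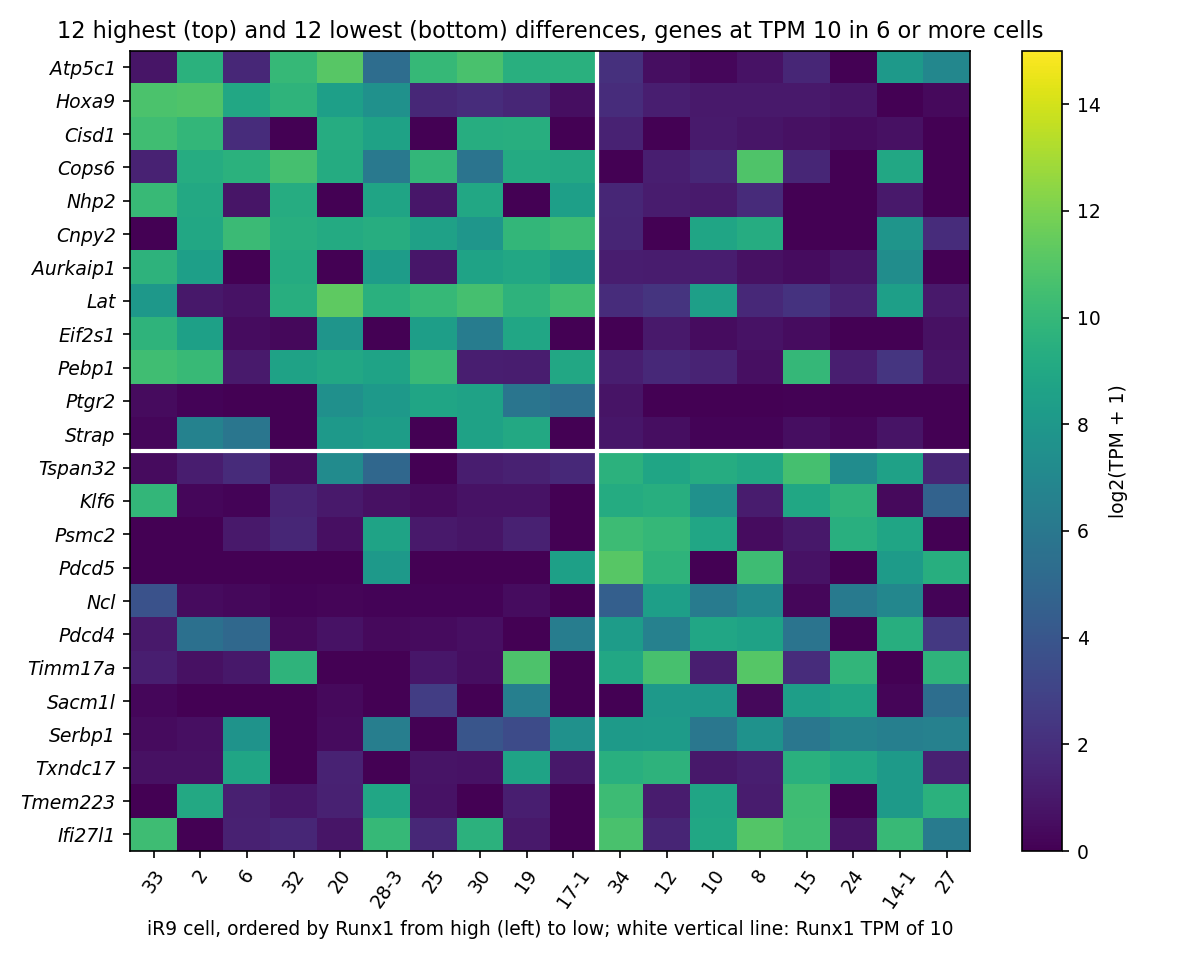
Colour gives log2(TPM + 1) of the 12 genes with the highest difference (above the horizontal line) and the 12 with the lowest (below it), among genes at 10 TPM in 6 or more cells and of stable sign, in each iR9 cell, from highest Runx1 (left) to lowest. The Hoxa9 row is bright in the 6 leftmost cells alone, Atp5c1 is dark in cells 33 and 6, and Tspan32 is bright in 7 of the 8 cells right of the line.

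The RUNX motif was looked up in the windows before the starts of these genes. It occurred for 2 of the 11 highest genes with a window, Pebp1 and Ptgr2, and for 3 of the 10 lowest, Tspan32, Psmc2 and Pdcd4. Of 1674 measured genes with a window, 21.1% held it in at least 1 of their windows. A match is a run of letters and does not show a binding site.

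In WT cells, which the division did not use, Runx1 and Hoxa9 were rarer and mostly apart. Runx1 reached 10 TPM in 4 of 29 WT cells, at 120.8, 40.5, 18.9 and 17.8 TPM. Hoxa9 did so in 3 (10.3%, 2.19 to 27.4%), at 102, 50.1 and 44.2 TPM, and 1 cell had both, with 17.8 TPM of Runx1 and 44.2 TPM of Hoxa9. All 6 iR9 cells with Hoxa9 had more of both transcripts than any WT cell. These iR9 cells came from libraries of suffix 2 and 3, or 3 alone, and every WT library had suffix 1. Of the iR9 cells of suffix 1, 14-1 and 17-1 had Hoxa9 at 0 and 0.467 TPM, and the left-out cell 12-1 at 580.7 TPM. The part of the suffix in the WT comparison was not tested. Split at the same level of Runx1, WT cells differed in Hoxa9 by 0.82, close to the median of 0.74 over all measured genes in these WT cells. Without the WT cell that had both, the WT difference was -0.48, and without each of the other 3 WT cells with Runx1 it was 1.20, 1.21 and 1.36, so its sign rests on 1 cell. It was 0 among the 8 WT cells with fewer than 3 myeloid and fewer than 3 dendritic cell markers, where 1 cell had Runx1 at TPM of at least 10.

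Of the 12 highest genes named for Runx1-high iR9 cells, 10 had a positive difference in WT cells, with a median of 0.83 beside 0.74 over all measured genes. Of the 12 lowest, 5 had a negative difference, and the median of the 12 was 0.58. Without each of the 4 WT cells with Runx1 in turn, these counts ran from 6 to 11 and from 2 to 5. Since the median over all measured genes was above 0, positive differences were common in this WT split. The counts are hence not read as a likeness to the iR9 cells. Tspan32 was in 0 of 4 WT cells with Runx1 and 11 of 25 others and differed by -3.08. Klf6 went against the iR9 cells, with 4 of 4 WT cells with Runx1, 10 of 25 others and a difference of 3.82. Serbp1 was also higher in WT cells with Runx1, by 1.56. Ltb was in 1 of 4 and 20 of 25, a difference of -5.86. Other ILC genes were also lower in the WT cells with Runx1, with -2.26 for Id2, -3.03 for Il7r and -3.20 for Tcf7. Itgb7 and Ets1 did not share this, with 0.66 and 0.03. The Ltb difference is hence not particular to Ltb in this WT split, and its cause was not tested. The group of 4 WT cells is small, and 3 of these 4 cells had the myeloid gene Lyz2 at TPM of at least 10, against 12 of 25 others. Its part in the WT values was not tested.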

How the data were processed

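PolyA RNA of single sorted mouse cells was amplified and made into libraries with the Discover-sc WTA Kit V2 and the TruePrep DNA Library Prep Kit V2, per the labels' protocols. The authors deposited TPM per gene symbol and library, in a table of 23420 rows and 63 libraries, each matched to 1 sample title. The submitters' processing notes name bcl2fastq 2.16.0.10, HISAT2 2.1.0, StringTie 1.3.4, SAMtools 0.1.19 and the build mm10, without saying which step each was used for. TPM keeps no depth, so no count test was used. Left out were 27 rows whose symbols had turned into dates, at most 0.540% of a library's TPM.

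From the table, libraries of suffix 2 and 3 of 1 iR9 cell number were averaged, cell 12-1 was dropped and cells were split at a Runx1 TPM of 10. A difference is the mean of log2(TPM + 1) in Runx1-high minus that in Runx1-low cells, which understates the change of low genes. Each class is 1 sample, so no test, standard error or set test was made. Cells at TPM of at least 10 were counted with exact Clopper-Pearson intervals. The members and lists were chosen with earlier results of these data known.

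Named genes were Hoxa9, members of the RUNX, HoxA, ILC progenitor and ILC3 and LTi lists, and the 12 highest and 12 lowest differences among genes that reached 10 TPM in 6 or more cells and whose sign held in the averaged pairs, for each suffix and without each cell in turn. Predicted and pseudogene symbols were passed over. Some genes of these lists are not reported here. Members of the other lists, and genes met by the presence criteria, were named after their values were seen. Some list symbols were matched through RefSeq synonyms. GENCODE M21 gave the coordinates, on GRCm38, which is the assembly of mm10. No doublet caller was run on these sorted cells. The functions were tested on simulated data. Python 3.11.15, NumPy 2.4.6, pandas 2.3.3, SciPy 1.17.1 and matplotlib 3.10.9 were used. Alternatives covered the Runx1 threshold, the library averaging, cell 12-1, pseudocounts, scaling, filters and leaving out each cell; setting suffix 3 values below TPM 5 to 0 and leaving out each WT cell were added after seeing the data.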

Additional observations from a re-analysis of the deposited data

Results flagged for a closer look

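Cell 14-1 had 3238 genes at TPM of at least 1, far above the other Runx1-low cells, whose gap to it was 0.663 of the range of the 8 cells against a critical value of 0.526. Of 12 groups of cells looked at in this way, this was the 1 that stood out. The critical value is one that chance passes in about 1 in 20 groups, and 12 groups were looked at. The cell is hence given as flagged alone, and the cause was not tested. The rule flags a cell and does not compare the classes. The cell had a single library of suffix 1, with Tcf7, Gata3 and Tnfsf11 all at TPM of at least 10. Of the mast cell genes it had Tpsb2 at 17.4, Cpa3 at 9.49, Cma1 at 6.99 and Mcpt4 at 2.61 TPM, and it shared suffix 1 with cell 12-1, which was left out for such transcripts. Cell 17-1, also of suffix 1, had these 4 genes listed at 0. Without cell 14-1 the Hoxa9 difference was 5.15, 401 genes in place of 285 were higher by at least 2, 194 in place of 225 were lower, and the median over all measured genes was 0.38 in place of 0.07.

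The left-out iR9 cell 12-1 had Runx1 at 486.3 TPM and Hoxa9 at 580.7 TPM, a ratio of 1.19, within the range of the 6 cells that had both. In it, 9 of 10 mast cell genes were at TPM of at least 10, against at most 1 in any of the 18 cells.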

How the results depend on the processing

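Hoxa9 and the 42 other named genes moved by less than the SD between cells, which was wide, under 37 other settings each. None with a difference of at least 2 changed sign. The genes of highest and lowest difference, Hoxa9 among them, had been chosen for a sign that held in some of these settings. These were the averaged pairs, each suffix and leaving out each cell in turn. For the genes so chosen, these settings could not show a change of sign. The Hoxa9 difference lay between 3.63 (pseudocount 10) and 6.20 (pseudocount 0.1), and between 4.76 and 5.91 without each cell in turn. Genes higher by at least 2 numbered 285, but 116 at a pseudocount of 10 and 188 when required in 6 cells. Genes lower by at least 2 numbered 225, but 341 at a pseudocount of 0.1, 73 at 10, 393 without a filter and 130 when required in 6 cells. Counting presence from TPM 1, or after quantile normalization, Hoxa9 was in 90% of high and 62.5% of low cells. Counted from TPM 50 up, the shares were 60% and 0%. The difference in median genes per cell, 169.5 at TPM of at least 1, was -339.5 at TPM above 0. The WT difference in Hoxa9 ran from -0.48 to 1.36 without each WT cell in turn. The cause was not tested. Medians of the ILC lists changed sign and are not read as a direction. No paired analysis was possible because the classes hold different cells and no test was made. The unknown depth and the few cells limit what a value of 0 or a count of cells can show.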
